A study of Rattus norvegicus with 36 samples.

Results

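Overload with G1-1, a titanium dioxide particle, was compared with its own control in primary alveolar macrophages from F344 rats, all male. These cells are the resident phagocytes of the air spaces and engulf what is inhaled. The comparison rests on 6 of the 36 RNA-sequencing libraries of the series, 3 biological replicates labelled G1-1 overload and 3 labelled G1-1 control, chosen by those labels alone. It is described across the 14606 genes that passed a filter on low counts, of 23487 in the table. Another 3 G1-1 libraries, labelled non-overload, are given as levels only, because they share the control libraries. The series has the same 3 conditions for 3 further particles, G3-1 and Bayertitan, which are titanium dioxide, and the carbon black Printex90. All groups shared the culture medium, DMEM with serum and antibiotic-antimycotic, and an exposure of 4 days. No source used here gives the particle amounts behind overload and non-overload, or what the control received. Whether each replicate is its own animal or culture is not stated in the labels. The p-values therefore measure the spread between replicate libraries, estimated over all 36 libraries of the series, and this spread may be technical.

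Particle overload is the state in which the lung's burden of poorly soluble particles slows clearance by alveolar macrophages. Swallowed particles end up in lysosomes, acidic vesicles in which hydrolases break down cargo, and many lysosomal genes share a short promoter element bound by the transcription factor TFEB and its relatives. Macrophages also present peptides on MHC class II, release cytokines and complement, and shift between glycolysis and respiration as their state changes, while growth and protein synthesis depend on the supply of ribosomes.

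Total counts per library were 32041475, 33078389 and 34771973 in overload and 30419757, 37271330 and 35403099 in control. Levels are CPM, the gene's counts scaled to a fixed library total, corrected by edgeR's trimmed mean of M-values, and each log2 fold change carries its standard error. Overload replicate 2 stood apart: Col3a1, a fibroblast collagen gene, was at 0, 17.6 and 0 CPM in the overload libraries and at 0 in all 3 control libraries. The mean log2 CPM of the fibroblast markers was 1.28, 4.33 and 1.26 in overload and 1.37, 1.59 and 1.51 in control. Results that changed most without this library are given with and without it. Macrophage genes were abundant in all 6 libraries, with Cd68, a lysosomal membrane glycoprotein, at 862, 869.7 and 952 CPM in overload, against 699.9, 691 and 773 CPM in control. Itgax, the integrin CD11c, had 1054, 952 and 1095 CPM in overload, against 955, 854 and 929.8 CPM in control. Marco, a scavenger receptor that marks alveolar macrophages, was near 0, at 0.0638, 0.0296 and 0.182 CPM in overload, against 0.258, 0.314 and 0.444 CPM in control; it was called lower, but not without overload replicate 2 (adjusted p = 0.0344 and 0.14). Itgax and Marco were looked up as markers of the cell type, outside the rule for named genes. Epithelial transcripts were also present, with the keratin Krt7 at 533, 789.9 and 529 CPM in overload, against 752, 998 and 808 CPM in control.

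By edgeR's quasi-likelihood test, adjusted by Benjamini-Hochberg, 28.1% of the genes tested were called at an adjusted p under 0.05, 13.7% higher in overload and 14.4% lower. Most changes were small: 3461 of the called genes, or 84.3%, changed by less than 1.5-fold, and 0.445% of genes tested were called higher and 0.712% lower by 2-fold or more. The overload and control libraries did not overlap in 37.5% of the genes tested, with all 3 overload libraries above in 17.7% and below in 19.9%. Without overload replicate 2, 4142 genes were called, and 3491 of the 4105 called with it were among them, all in the same direction. These shares are the background for the gene lists. For overload against control, where a list below has members called in only 1 direction, DESeq2 also called none the other way, except 1 gene of the aryl hydrocarbon receptor list. At an unadjusted p under 0.05, 1 member went the other way among the interleukin-1, chemokine ligand, ribosome biogenesis and aryl hydrocarbon receptor genes and none in the remaining lists.

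**Figure D1:**
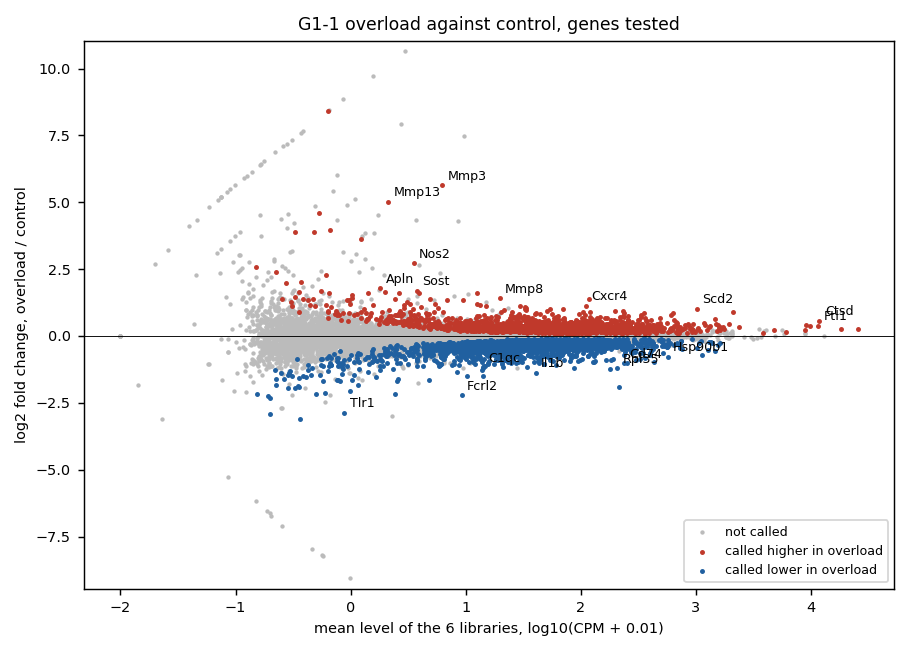
Log2 fold change of G1-1 overload over control (y axis) against the mean level of the 6 libraries on a log10 scale (x axis), 1 point per gene tested. Genes called higher in overload are red, genes called lower are blue and the rest are grey; Ctsd and Ftl1 lie at the abundant end of the increases, and the called genes Mmp3 and Mmp13 were high in overload replicate 2 alone.

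The 12 largest increases among called genes of at least 1 CPM with no overlap were led by Snai1, a repressor of epithelial genes, which had 0.287, 6.07 and 0.487 CPM in overload, against 0.193, 0.105 and 0.25 CPM in control and was not called without overload replicate 2 (adjusted p = 0.658). The other 11 kept their call without it. Sost, sclerostin, an inhibitor of Wnt signalling, had 5.65, 5.92 and 5.53 CPM in overload, against 1.77, 1.72 and 1.78 CPM in control, and 2.8, 2.99 and 4.04 CPM with non-overload (log2 fold change 1.70 ± 0.21, adjusted p = 3.14e-07). Its 3 conditions stood in order with no overlap. Epor, the erythropoietin receptor, had 0.957, 1.54 and 2.04 CPM in overload, against 0.612, 0.497 and 0.444 CPM in control (log2 fold change 1.55 ± 0.27, adjusted p = 6.25e-05). Igf2bp1, an RNA-binding protein, had 1.08, 1.69 and 1.67 CPM in overload, against 0.58, 0.523 and 0.555 CPM in control (log2 fold change 1.42 ± 0.32, adjusted p = 0.000945). Both were low in all libraries. Of the 12 largest decreases, chosen alike, 11 kept their call, the exception being the interferon-induced chemokine Cxcl10 (adjusted p = 0.0572). Fcrl2, an Fc receptor-like gene, had 3.35, 2.75 and 3.68 CPM in overload, against 16, 13.6 and 16.1 CPM in control, and 16.1, 20.4 and 14.9 CPM with non-overload (log2 fold change -2.22 ± 0.20, adjusted p = 9.93e-10). Cadm3, a cell adhesion molecule, had 0.574, 0.563 and 0.547 CPM in overload, against 1.64, 1.59 and 1.42 CPM in control, and 2.45, 2.26 and 1.91 CPM with non-overload (log2 fold change -1.46 ± 0.25, adjusted p = 4.88e-05). In both genes the overload libraries lay below the other 6. Clu, clusterin, an extracellular chaperone, was among the 10 largest decreases in CPM, with 764, 1087 and 732 CPM in overload, against 1193, 1695 and 1316 CPM in control (log2 fold change -0.70 ± 0.26, adjusted p = 0.0412). Glul, glutamine synthetase, had 859, 860.4 and 871 CPM in overload, against 1269.7, 1071 and 1207 CPM in control (log2 fold change -0.45 ± 0.084, adjusted p = 0.000123).

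The lists of the ribosome had the largest shares of decreases. Of 48 cytosolic ribosomal protein genes tested, 34 fell and 1 rose, with a median log2 fold change of -0.363, beside -0.0195 over all genes tested. Rpl35, a protein of the large subunit, had 119, 123 and 133 CPM in overload, against 268, 293 and 300.1 CPM in control. All 3 overload libraries lay below all 3 controls, and the non-overload libraries, at 272, 315 and 305 CPM, lay at the control level (log2 fold change -1.20 ± 0.12, adjusted p = 4.92e-09). Rpl19, also of the large subunit, had 274, 289 and 300.4 CPM in overload, against 548, 565 and 598 CPM in control, and 569, 605 and 608 CPM with non-overload (log2 fold change -0.99 ± 0.067, adjusted p = 5.38e-12). Again the overload libraries stood alone below the other 6. Rpl26 had a log2 fold change of -1.01 ± 0.094, Rpl21 of -0.98 ± 0.082 and Rpl7 of -0.64 ± 0.051. The fall was uneven within the ribosome: Rplp0, a protein of its stalk, had 869, 865 and 949.6 CPM in overload, against 960.1, 969.8 and 977 CPM in control (log2 fold change -0.12 ± 0.040, adjusted p = 0.0304). It was not called without overload replicate 2 (adjusted p = 0.15). Rpl10 rose, with 984, 934 and 1109.7 CPM in overload, against 838, 827 and 888 CPM in control (log2 fold change 0.25 ± 0.066, adjusted p = 0.00511). Summed over the 80 ribosomal protein genes in the table, the share of all counts was 1.61%, 1.69% and 1.65% in overload and 2.03%, 2.21% and 2.21% in control. The sums do not overlap, and the exact two-sided permutation test gave p = 0.1, the smallest that 3 against 3 libraries allow. Ribosomal protein genes have many near-identical processed copies. Whether these were among the sequences given to Salmon, and how shared reads were divided, is unknown, which leaves the value of any 1 gene uncertain.

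Genes that build ribosomes fell as well. Of 39 ribosome biogenesis genes 28 fell and none rose, with a median log2 fold change of -0.301. Nolc1, a nucleolar phosphoprotein that serves RNA polymerase I, had 54.1, 61.8 and 49.5 CPM in overload, against 104, 104 and 111 CPM in control (log2 fold change -0.95 ± 0.065, adjusted p = 5.58e-12). Ncl, nucleolin, had 212, 224 and 193 CPM in overload, against 369, 417 and 386 CPM in control (log2 fold change -0.90 ± 0.071, adjusted p = 8.62e-11). Neither gene's overload libraries reached the lowest control. The RNA helicase Ddx21 had a log2 fold change of -0.67 ± 0.051, Nop14 of -0.59 ± 0.068, Rrp1 of -0.51 ± 0.057 and nucleophosmin, Npm1, of -0.41 ± 0.078. Of 32 translation factors 14 fell and 4 rose. Eif5b, the GTPase that joins the ribosomal subunits, had 73.7, 63.7 and 58.3 CPM in overload, against 129.9, 121 and 123 CPM in control (log2 fold change -0.94 ± 0.052, adjusted p = 1.04e-13). Its overload values lay below all others, while Eef1a1, which carries aminoacyl-tRNA to the ribosome, had 2934, 2911 and 3233 CPM in overload, against 3192, 3276 and 3284 CPM in control and was not called (log2 fold change -0.10 ± 0.045, adjusted p = 0.0861). Eif3g fell by 0.65 ± 0.051, Eef1d by 0.71 ± 0.064 and Eif3a by 0.43 ± 0.030 on the log2 scale.

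**Figure D2:**
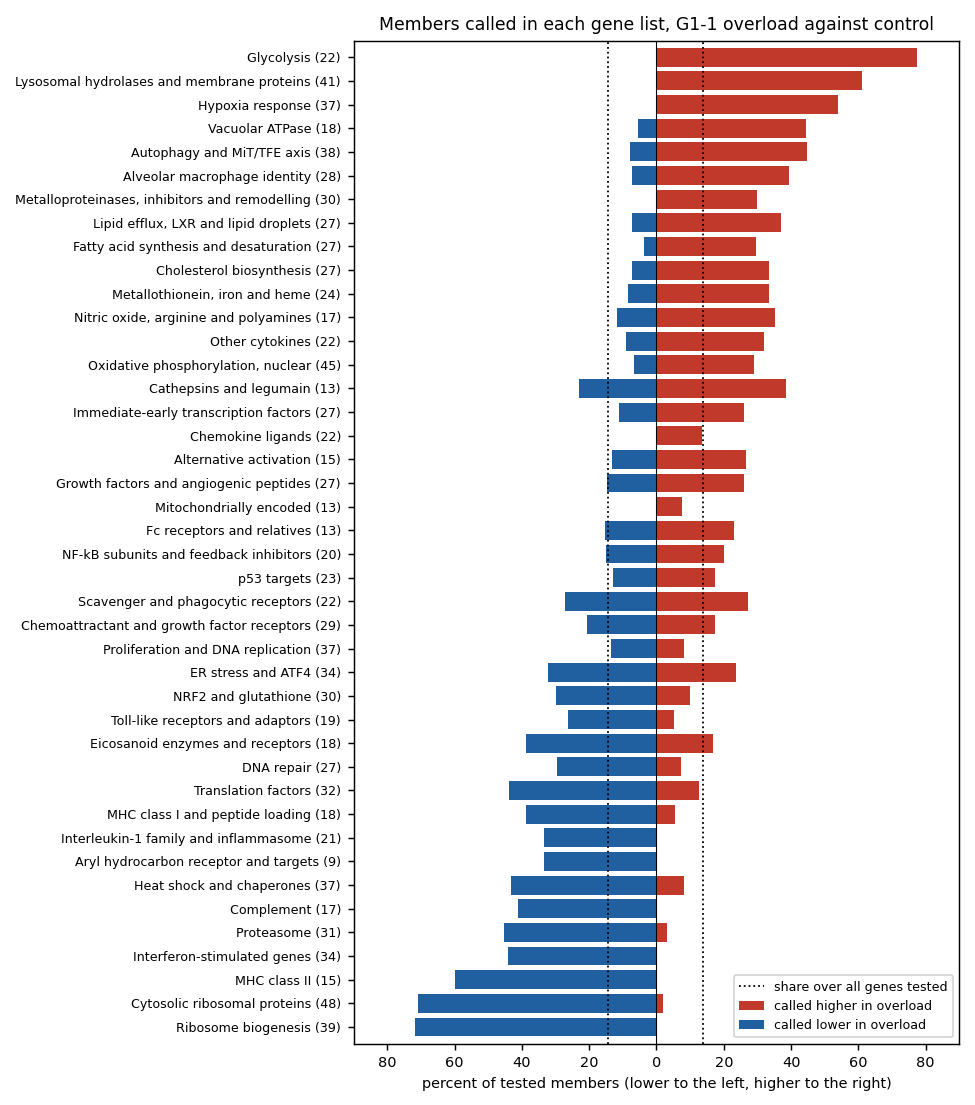
Percent of the tested members of each gene list called lower (blue, to the left) or higher (red, to the right) in G1-1 overload than in control, with the number tested in brackets; dotted lines mark the shares over all genes tested, 14.4% lower and 13.7% higher. Glycolysis, lysosomal and hypoxia genes stand at the top, and MHC class II, ribosomal protein and ribosome biogenesis genes at the bottom.

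Proteasome and chaperone genes fell more often than they rose. Of 31 proteasome genes 14 fell and 1 rose, with a median of -0.110. Psmd7, a lid subunit of the regulatory particle, had 36.2, 40.8 and 37.2 CPM in overload, against 58.5, 63.5 and 62.3 CPM in control (log2 fold change -0.69 ± 0.044, adjusted p = 1.04e-12). Psmd4, a ubiquitin receptor, fell by 0.52 ± 0.043, the ATPase Psmc1 by 0.52 ± 0.044 and Psmd12 by 0.43 ± 0.036 on the log2 scale. Of 37 heat shock and chaperone genes 16 fell and 3 rose. Hsp90ab1, the constitutive cytosolic HSP90, had 1041, 1083 and 1047 CPM in overload, against 1475, 1497 and 1531 CPM in control (log2 fold change -0.51 ± 0.032, adjusted p = 1.03e-12). Its overload libraries lay within a narrow band below the controls. Hsp90aa1, the inducible form, had 641, 613 and 598 CPM in overload, against 807, 871 and 870.4 CPM in control (log2 fold change -0.46 ± 0.045, adjusted p = 5.24e-09). Its co-chaperone Stip1 had 69.6, 76.8 and 64.8 CPM in overload, against 99.5, 104 and 104 CPM in control. Bag3, a co-chaperone of selective autophagy, rose, with 75.8, 79.2 and 80.2 CPM in overload, against 59.9, 59.6 and 62.6 CPM in control (log2 fold change 0.37 ± 0.051, adjusted p = 2.28e-06). Hsp90b1, the HSP90 of the endoplasmic reticulum, had 426, 425 and 409 CPM in overload, against 723, 704 and 726 CPM in control, a separation with a log2 fold change of -0.77 ± 0.031 (adjusted p = 2.19e-16). Of the 34 genes of endoplasmic reticulum stress and ATF4 to which it belongs, 11 fell and 8 rose. The lumenal chaperones Hspa5, at -0.31 ± 0.038, Dnajc3, at -0.41 ± 0.054, and Calr, at -0.28 ± 0.041, were among those that fell. Psat1, an enzyme of serine synthesis and an ATF4 target, rose, with 195, 178 and 221 CPM in overload, against 121, 127 and 127 CPM in control (log2 fold change 0.67 ± 0.059, adjusted p = 9.22e-10). Trib3, a pseudokinase induced by ATF4 and chosen after its values were seen, had 11.7, 17.6 and 23.5 CPM in overload, against 6.93, 8.65 and 7.19 CPM in control and 10.8, 10.5 and 15.1 CPM with non-overload (log2 fold change 1.21 ± 0.27, adjusted p = 0.00103).

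Lysosomal genes rose. Of 41 genes of lysosomal hydrolases and membrane proteins 25 rose and none fell, with a median log2 fold change of 0.238. Of the 17 called members with a promoter in the RefSeq table for GRCr8, 6 hold CACGTGAC, the core of the lysosomal promoter element, on either strand, and of all 30 tested members with a promoter 8 hold it, or 26.7%. Among all 27457 promoters of the same length, from 250 bases before to 50 after the start, 2.02% hold it, beside 3.62% of the 10471 genes tested that have one. A match is a description of these letters only. The 3 promoters below show its number and place in the lysosomal membrane protein Lamp1 (chr16:83075014-83075313, minus strand), which was chosen after its values were seen, in the lysosomal calcium channel Mcoln1 (chr12:6358008-6358307, plus strand) and in the glycogen-degrading hydrolase Gaa (chr10:105028105-105028404, plus strand). Capitals mark CACGTGAC or its reverse complement, of which Lamp1 has 4, Mcoln1 2 and Gaa 1.
Lamp1: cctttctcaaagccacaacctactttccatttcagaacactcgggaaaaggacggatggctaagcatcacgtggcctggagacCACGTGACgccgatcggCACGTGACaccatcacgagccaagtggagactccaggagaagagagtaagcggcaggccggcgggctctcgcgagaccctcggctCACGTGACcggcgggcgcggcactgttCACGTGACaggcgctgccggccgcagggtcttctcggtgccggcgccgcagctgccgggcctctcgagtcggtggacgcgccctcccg
Mcoln1: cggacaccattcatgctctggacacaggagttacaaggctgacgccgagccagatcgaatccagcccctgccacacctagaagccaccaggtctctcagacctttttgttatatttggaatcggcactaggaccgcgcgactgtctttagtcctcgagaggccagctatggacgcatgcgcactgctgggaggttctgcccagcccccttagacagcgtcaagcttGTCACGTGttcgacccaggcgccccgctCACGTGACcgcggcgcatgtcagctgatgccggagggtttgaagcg
Gaa: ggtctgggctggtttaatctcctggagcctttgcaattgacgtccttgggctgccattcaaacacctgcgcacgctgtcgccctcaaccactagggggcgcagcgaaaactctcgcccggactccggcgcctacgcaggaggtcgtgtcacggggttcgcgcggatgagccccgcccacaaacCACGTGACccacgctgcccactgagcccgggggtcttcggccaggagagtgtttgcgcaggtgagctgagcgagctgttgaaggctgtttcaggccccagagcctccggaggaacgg

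The genes with these promoters rose by modest amounts. Gaa had 465, 459 and 534 CPM in overload, against 335, 306 and 328 CPM in control (log2 fold change 0.59 ± 0.069, adjusted p = 1.47e-07). Mcoln1 had 52, 48.7 and 61 CPM in overload, against 38.7, 36.2 and 38 CPM in control and 38.6, 38.2 and 38 CPM with non-overload, so the overload libraries stood above the other 6 (log2 fold change 0.52 ± 0.061, adjusted p = 1.47e-07). Lamp1 had 1748, 1627 and 1885 CPM in overload, against 1466, 1374 and 1429 CPM in control (log2 fold change 0.30 ± 0.063, adjusted p = 0.000517). Naglu, an enzyme of heparan sulfate breakdown, rose by 0.61 ± 0.071, the sorting receptor Igf2r by 0.42 ± 0.055 and the sphingomyelinase Smpd1 by 0.38 ± 0.055 on the log2 scale. Prosaposin, Psap, had 9555, 8749.5 and 10482 CPM in overload, against 8487, 7800.5 and 8351 CPM in control (log2 fold change 0.22 ± 0.072, adjusted p = 0.0187). Gm2a, the GM2 activator, had 2643, 2392 and 2753 CPM in overload, against 2813, 2542 and 2690.1 CPM in control and was not called (log2 fold change -0.047 ± 0.078, adjusted p = 0.71). Cathepsins went both ways, with 5 of 13 higher and 3 lower. Ctsd, an aspartic protease, had 13845, 13388 and 15251 CPM in overload, against 9586, 9081 and 9804 CPM in control (log2 fold change 0.58 ± 0.063, adjusted p = 4.74e-08). Ctsb, a cysteine protease, had 10237, 9509.7 and 10943 CPM in overload, against 7862, 7402 and 7999 CPM in control, whereas Ctsc, which activates serine proteases, had 104, 94.4 and 91.4 CPM in overload, against 159.8, 138 and 144 CPM in control (log2 fold change -0.61 ± 0.090, adjusted p = 5.97e-06).

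Genes that acidify lysosomes and recycle cell contents followed in part. Of 18 vacuolar ATPase genes 8 rose and 1 fell. The membrane subunits Atp6v0b, at 0.54 ± 0.082, and Atp6v0c, at 0.44 ± 0.068, rose, and Atp6v1g1, of the soluble part, fell, at -0.36 ± 0.064. Of 38 autophagy and MiT/TFE genes 17 rose and 3 fell. Sqstm1, the autophagy receptor p62, had 458, 436 and 559 CPM in overload, against 378, 360.5 and 368 CPM in control (log2 fold change 0.39 ± 0.076, adjusted p = 0.000209). Fnip2, a partner of folliculin in nutrient sensing at the lysosome, had 399, 408 and 537 CPM in overload, against 288, 253 and 299 CPM in control (log2 fold change 0.68 ± 0.083, adjusted p = 3.03e-07). Becn1, beclin 1, and Mitf, a relative of TFEB, fell, at -0.36 ± 0.034 and -0.36 ± 0.065. Tfeb itself, chosen after its values were seen, had 85.3, 83.5 and 97 CPM in overload, against 68.6, 65.9 and 68 CPM in control (log2 fold change 0.39 ± 0.074, adjusted p = 0.000145).

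Most lipid genes were not called, and those called were mostly higher. Of 27 genes of fatty acid synthesis and desaturation 8 rose and 1 fell, and of 27 genes of lipid efflux and droplets 10 rose and 2 fell. Scd2, a stearoyl-CoA desaturase, had 1323, 1217 and 1530.1 CPM in overload, against 635, 689 and 684 CPM in control and 870.3, 881 and 944 CPM with non-overload, so the 3 conditions stood in order with no overlap (log2 fold change 1.02 ± 0.076, adjusted p = 3.56e-11). Srebf1, the transcription factor of lipid synthesis, had 122, 115 and 145 CPM in overload, against 82.7, 77 and 78.7 CPM in control (log2 fold change 0.68 ± 0.070, adjusted p = 1.4e-08). Fads1, a fatty acid desaturase, had 34.1, 31.6 and 32.4 CPM in overload, against 19.5, 15.2 and 17.8 CPM in control (log2 fold change 0.90 ± 0.13, adjusted p = 3.85e-06). Dgat2, which makes triglyceride, rose by 0.53 ± 0.061 and Npc1, the lysosomal cholesterol exporter, by 0.51 ± 0.066. Of 27 cholesterol synthesis genes 9 rose and 2 fell, with Sc5d at 0.40 ± 0.053 and Lss at 0.38 ± 0.063. Lipoprotein lipase, Lpl, had 3216, 2569.6 and 3144 CPM in overload, against 3162, 2856 and 3119 CPM in control and was not called (log2 fold change -0.033 ± 0.087, adjusted p = 0.826). Scarb1, a receptor for high-density lipoprotein counted with the scavenger receptors, rose, with 404, 369 and 491 CPM in overload, against 253, 225 and 251 CPM in control (log2 fold change 0.79 ± 0.12, adjusted p = 6.16e-06).

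Glycolysis genes gave the largest share of increases. Of the 22 tested, 17 rose and none fell, at a median log2 fold change of 0.329, and of 37 hypoxia-response genes 20 rose and none fell, with a median of 0.357. Slc2a1, the glucose transporter GLUT1, had 364, 431 and 572 CPM in overload, against 229.5, 261 and 255 CPM in control, and 328, 315 and 388 CPM with non-overload (log2 fold change 0.88 ± 0.14, adjusted p = 1.27e-05). Hk2, the hexokinase that traps glucose in the cell, had 599.6, 750.3 and 949 CPM in overload, against 417, 455 and 462 CPM in control (log2 fold change 0.78 ± 0.11, adjusted p = 4.34e-06). Slc16a3, which exports lactate, had 254, 288 and 342 CPM in overload, against 155, 182 and 185 CPM in control (log2 fold change 0.76 ± 0.11, adjusted p = 7.21e-06). For each of these 3 genes the non-overload libraries lay above the controls as well, and overload replicate 3 was the highest of all. The oxygen sensor Egln1 had 49.1, 54.4 and 66.2 CPM in overload, against 29.8, 34.7 and 32.3 CPM in control (log2 fold change 0.81 ± 0.11, adjusted p = 2.18e-06). Ero1a, an oxidase of the endoplasmic reticulum, had 148, 171 and 229 CPM in overload, against 105, 116 and 110.3 CPM in control. Bnip3, a receptor for removal of mitochondria that was chosen after its values were seen, had 133, 145 and 192 CPM in overload, against 73.2, 96.7 and 83.3 CPM in control (log2 fold change 0.89 ± 0.16, adjusted p = 9.54e-05). Of 45 nuclear genes of oxidative phosphorylation 13 rose and 3 fell. Uqcrfs1, the iron-sulfur protein of complex III, rose by 0.31 ± 0.057, while Ndufb10, of complex I, had 30.3, 30.6 and 30.4 CPM in overload, against 55.2, 51.4 and 52.8 CPM in control (log2 fold change -0.80 ± 0.084, adjusted p = 2.25e-08). Of 13 mitochondrially encoded genes only Mt-co1 was called, with 31397, 23483 and 28507 CPM in overload, against 22858, 24169 and 21873 CPM in control, values that overlap (log2 fold change 0.28 ± 0.091, adjusted p = 0.0231).

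**Figure D3:**
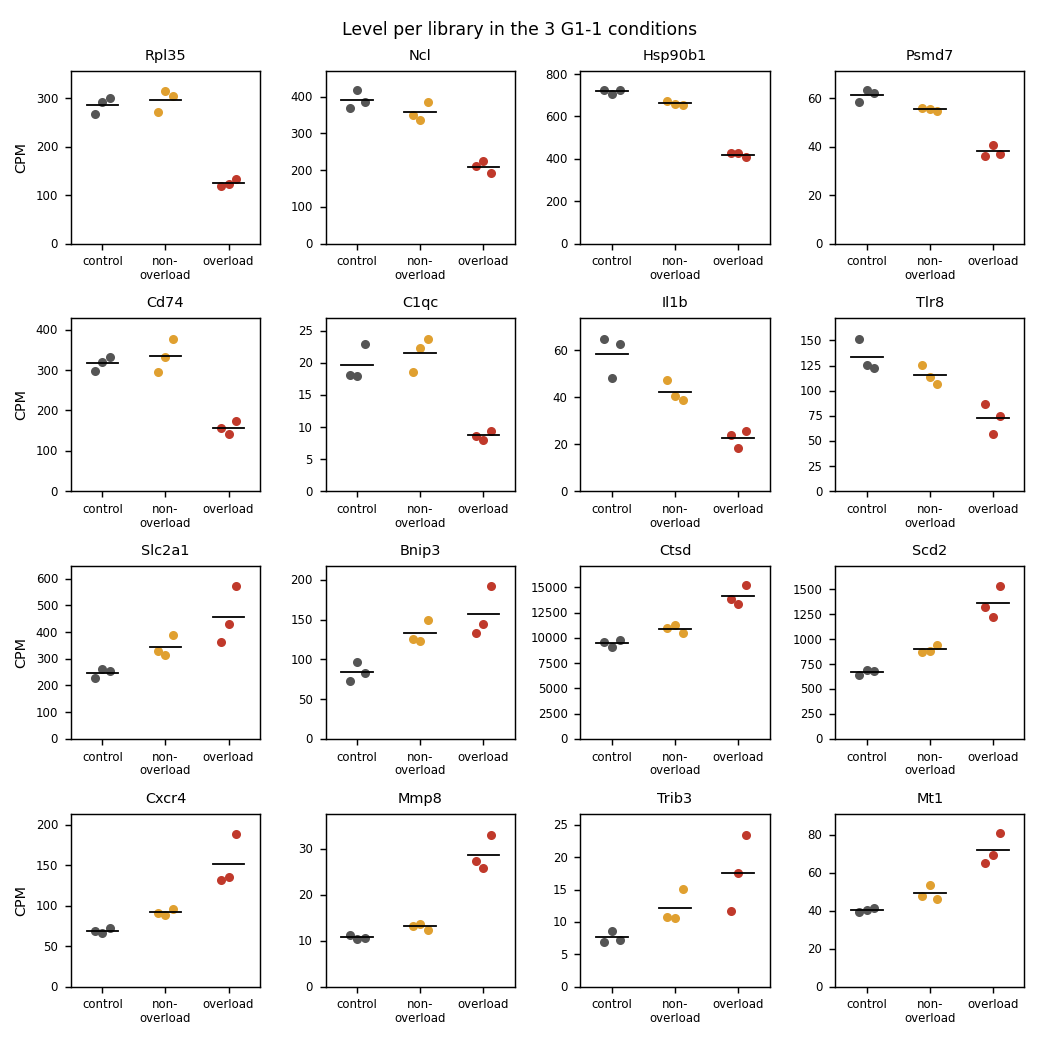
Level in CPM (y axis, from 0) of 16 genes in each library of G1-1 control, non-overload and overload (x axis, 3 points each, with a line at the mean). Rpl35, Ncl, Hsp90b1, Cd74, C1qc and Mmp8 separate overload from the other 2 conditions, while Slc2a1, Bnip3 and Scd2 have non-overload means between those of control and overload.

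Of 15 MHC class II genes 9 fell and none rose, with a median of -0.392. Their promoters are known for a conserved module that ends in the Y box, an inverted CCAAT sequence read as ATTGG, and 10 of the 12 tested members with a promoter in the RefSeq table for GRCr8 hold ATTGG on either strand, or 83.3%. So do 37.7% of all 27457 promoters, since the motif is short. The 10 include the regulators Rfx5 and Rfxank, so the 83.3% is a share of the list and not of class II chain genes alone. Shown are the 100 bases before the start of 4 classical chain genes that fell, RT1-Da (chr20:4515315-4515414, plus strand), RT1-Db1 (chr20:4560163-4560262, minus strand), RT1-Ba (chr20:4576957-4577056, plus strand) and RT1-Bb (chr20:4604119-4604218, minus strand), with ATTGG or its reverse complement in capitals.
RT1-Da: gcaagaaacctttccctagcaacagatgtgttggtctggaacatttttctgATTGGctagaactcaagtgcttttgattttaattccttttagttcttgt
RT1-Db1: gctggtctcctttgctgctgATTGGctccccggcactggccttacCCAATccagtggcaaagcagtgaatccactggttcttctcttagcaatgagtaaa
RT1-Ba: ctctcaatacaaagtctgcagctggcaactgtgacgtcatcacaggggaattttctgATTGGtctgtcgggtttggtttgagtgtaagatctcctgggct
RT1-Bb: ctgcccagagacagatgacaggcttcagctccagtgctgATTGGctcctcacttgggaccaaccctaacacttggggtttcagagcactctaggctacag

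In these promoters ATTGG begins at base -49, -80, -43 and -61 from the start of RT1-Da, RT1-Db1, RT1-Ba and RT1-Bb, and RT1-Db1 has it once more on the opposite strand at -55. RT1-Db1, a class II beta chain, had 39.7, 33 and 45.4 CPM in overload, against 70.1, 81.7 and 74 CPM in control (log2 fold change -0.94 ± 0.13, adjusted p = 3.35e-06). RT1-Da, an alpha chain, had 69.2, 60.6 and 73.1 CPM in overload, against 106, 122 and 112 CPM in control. RT1-Ba, another alpha chain, had 50.6, 42.6 and 58.7 CPM in overload, against 79, 85.2 and 86.1 CPM in control. RT1-Bb, a beta chain, had 62.2, 57.4 and 70.9 CPM in overload, against 101, 109 and 105 CPM in control. All 4 had every overload library below every control and non-overload library. Cd74, the invariant chain that guides class II to endosomes, had 157, 141 and 173 CPM in overload, against 299, 319.6 and 333 CPM in control and 296, 333 and 377 CPM with non-overload. Ciita, the class II transactivator, had 7.08, 6.49 and 7.6 CPM in overload, against 11, 10.9 and 10.6 CPM in control. Similar RT1 genes can share reads, and how these were split is unknown, which makes each value uncertain. Of 18 genes of MHC class I and peptide loading 7 fell and 1 rose. Psme1, an activator of the immunoproteasome, had 49.3, 49 and 51.4 CPM in overload, against 94.9, 86 and 96.2 CPM in control (log2 fold change -0.89 ± 0.063, adjusted p = 1.25e-11), whereas beta-2-microglobulin, B2m, had 2241, 2039.7 and 2344 CPM in overload, against 1948, 1853 and 2051 CPM in control and was not called (log2 fold change 0.18 ± 0.080, adjusted p = 0.0974).

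Of 17 complement genes tested 7 fell and none rose, with a median of -0.669. The C1q chains C1qa, C1qb and C1qc, which start the classical pathway, had log2 fold changes of -1.05 ± 0.16, -1.12 ± 0.17 and -1.18 ± 0.18. C1qc had 8.61, 8.06 and 9.43 CPM in overload, against 18.2, 18 and 22.9 CPM in control, with 18.6, 22.3 and 23.7 CPM with non-overload; the non-overload libraries overlapped the controls. Properdin, Cfp, which stabilises the alternative pathway's convertase, had 92.8, 80.1 and 87.6 CPM in overload, against 188, 153 and 167 CPM in control (log2 fold change -0.97 ± 0.083, adjusted p = 4.78e-10). C3, on which the pathways converge, had 16.5, 18.3 and 20.2 CPM in overload, against 36.8, 31.3 and 42 CPM in control (adjusted p = 2.25e-05). Among other innate genes, 5 of 19 Toll-like receptors and adaptors fell and 1 rose. Tlr8, an endosomal receptor for single-stranded RNA, had 86.8, 56.6 and 74.7 CPM in overload, against 152, 126 and 123 CPM in control (log2 fold change -0.88 ± 0.15, adjusted p = 5.13e-05). Tlr4, the endotoxin receptor, had 43.2, 33.4 and 36.5 CPM in overload, against 54.5, 47.2 and 42.5 CPM in control, values that overlap, and lost its call without overload replicate 2 (adjusted p = 0.0622). Fcgr1a, the high-affinity IgG receptor, fell, with 82.9, 69.7 and 81.9 CPM in overload, against 114, 100.4 and 108 CPM in control (log2 fold change -0.46 ± 0.072, adjusted p = 1.45e-05). Fcgr2a rose, with 1083, 962 and 1087 CPM in overload, against 939, 916 and 960.3 CPM in control (log2 fold change 0.15 ± 0.047, adjusted p = 0.014). Of 13 Fc receptor genes 3 rose and 2 fell, and without overload replicate 2 6 rose. Of 22 scavenger and phagocytic receptors 6 rose and 6 fell, those that fell including Mertk, a receptor for dying cells, at -0.40 ± 0.10. Without overload replicate 2, 6 of these receptors rose and 4 fell.

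Of 21 interleukin-1 family and inflammasome genes 7 fell and none rose. Il1b, the cytokine itself, had 23.7, 18.2 and 25.5 CPM in overload, against 64.6, 48.2 and 62.7 CPM in control, and 47.4, 40.6 and 39 CPM with non-overload, so both particle conditions lay below control (log2 fold change -1.38 ± 0.16, adjusted p = 1.2e-07). Pycard, the adaptor ASC, had 11.1, 11.6 and 12 CPM in overload, against 19.7, 18.7 and 17.7 CPM in control (log2 fold change -0.69 ± 0.087, adjusted p = 4.72e-07). The sensor Nlrp3 had 46, 42.4 and 41.5 CPM in overload, against 60, 51.4 and 57.4 CPM in control (log2 fold change -0.38 ± 0.058, adjusted p = 1e-05). The receptor antagonist Il1rn had 1222, 974 and 1224 CPM in overload, against 1275, 1136 and 1293 CPM in control and was not called (log2 fold change -0.11 ± 0.081, adjusted p = 0.327). Interferon-stimulated genes gave 15 decreases and no increase among 34 tested, with a median of -0.436. This count rests in part on overload replicate 2, since without it 8 fell and none rose. Irf1, a transcription factor of the interferon response, had 19.2, 17.5 and 17.9 CPM in overload, against 31.8, 30 and 30.6 CPM in control (log2 fold change -0.76 ± 0.059, adjusted p = 7.68e-11). Gbp5, a GTPase of host defence, had 5.36, 4.44 and 3.95 CPM in overload, against 8.02, 8.21 and 8.94 CPM in control (log2 fold change -0.87 ± 0.14, adjusted p = 1.71e-05). Both kept their call without overload replicate 2, at -0.72 and -0.84. Of 18 eicosanoid genes 7 fell and 3 rose. Alox5, the 5-lipoxygenase that starts leukotriene synthesis, had 15.8, 12.8 and 13 CPM in overload, against 28.6, 25.7 and 27.7 CPM in control (log2 fold change -0.98 ± 0.10, adjusted p = 5.82e-09). The phospholipase Pla2g4a, which frees its substrate, had 44.5, 40.5 and 40.2 CPM in overload, against 57, 51 and 55.4 CPM in control (log2 fold change -0.38 ± 0.059, adjusted p = 1.1e-05).

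Chemokine and cytokine genes moved less uniformly. Of the 22 chemokine ligands in that list 3 were called higher, near the background share, and none lower. Without overload replicate 2, 2 were higher and 1 lower. Cxcl10, counted with the interferon-stimulated genes and not in this list, was called lower but, as given above, not without that library. Cxcl2, a neutrophil attractant, had 19.1, 21.4 and 19.6 CPM in overload, against 14.7, 16.4 and 16.6 CPM in control. Pf4, platelet factor 4, had 80, 71.7 and 90.5 CPM in overload, against 60.1, 59.5 and 66.4 CPM in control. Cxcl6, also a neutrophil attractant, had 92.6, 115 and 54.8 CPM in overload, against 45.8, 57 and 60.2 CPM in control. Cxcl2 and Cxcl6 lost their calls without overload replicate 2 (adjusted p = 0.0951 and 0.188). Receptors moved both ways. Cxcr4, the receptor of CXCL12, had 132, 135 and 188 CPM in overload, against 68.7, 65.8 and 72.8 CPM in control (log2 fold change 1.14 ± 0.089, adjusted p = 8.93e-11). Cxcr1, an interleukin-8 receptor, had 294, 279.5 and 349 CPM in overload, against 159, 157 and 171 CPM in control (log2 fold change 0.92 ± 0.087, adjusted p = 3.28e-09). Among 29 chemoattractant and growth factor receptors 5 rose and 6 fell, and among 22 other cytokines 7 rose and 2 fell. Gpnmb, a glycoprotein of macrophages that handle lipid or lysosomal load, rose, with 20314, 17894 and 20973 CPM in overload, against 17008, 15666 and 16693 CPM in control (log2 fold change 0.26 ± 0.072, adjusted p = 0.00671). Osteopontin, Spp1, fell, with 668, 609 and 625 CPM in overload, against 918, 877 and 849 CPM in control (log2 fold change -0.48 ± 0.062, adjusted p = 8.75e-07). Tgfb1, a profibrotic cytokine, rose, with 481, 472 and 515 CPM in overload, against 382, 346 and 372 CPM in control (log2 fold change 0.42 ± 0.076, adjusted p = 0.000109). Slc7a2, the transporter that supplies arginine to nitric oxide synthase, had 242, 258 and 322 CPM in overload, against 161, 159 and 176 CPM in control (log2 fold change 0.73 ± 0.087, adjusted p = 2.22e-07), in a list of 17 arginine and polyamine genes of which 6 rose and 2 fell. Ncf1, the p47 subunit of the phagocyte oxidase, was among the 10 largest increases in CPM, with 2666, 2478 and 3057 CPM in overload, against 1522, 1409 and 1493 CPM in control (log2 fold change 0.89 ± 0.080, adjusted p = 1.22e-09).

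Of 30 metalloproteinase and remodelling genes 9 rose and none fell, with a median log2 fold change of 0.118. Without overload replicate 2, 9 rose and 1 fell. Mmp8, a collagenase, had 27.4, 25.8 and 33.1 CPM in overload, against 11.2, 10.3 and 10.7 CPM in control and 13.2, 13.7 and 12.4 CPM with non-overload (log2 fold change 1.42 ± 0.11, adjusted p = 4.9e-11). Mmp10, stromelysin-2, had 17.4, 19 and 18.2 CPM in overload, against 8.15, 9.33 and 6.97 CPM in control (log2 fold change 1.16 ± 0.16, adjusted p = 1.61e-06). Tgm2, which crosslinks matrix proteins, had 692, 807 and 934 CPM in overload, against 408, 473 and 467 CPM in control (log2 fold change 0.85 ± 0.084, adjusted p = 7.45e-09). Mmp14, a membrane-bound metalloproteinase, had 437, 428 and 466 CPM in overload, against 324, 324 and 351 CPM in control. The urokinase Plau had 416, 477 and 466 CPM in overload, against 328, 328 and 368 CPM in control. The macrophage elastase Mmp12 had 9939, 8073 and 9639 CPM in overload, against 8785, 8633 and 8689 CPM in control and was not called (log2 fold change 0.083 ± 0.067, adjusted p = 0.396). Mmp3 and Mmp13 were called as well, but their level came from 1 library: Mmp3 had 0.255, 36.3 and 0.0608 CPM in overload, against 0.419, 0.131 and 0.194 CPM in control, and Mmp13 had 0.0957, 12.1 and 0.0304 CPM in overload, against 0.129, 0.183 and 0.0555 CPM in control. Without overload replicate 2 their log2 fold changes were -0.61 and -0.93 and neither was called. Of 27 growth factor genes 7 rose and 4 fell, and without overload replicate 2, 8 rose and 7 fell, with a median log2 fold change of -0.237. Gdf15, a stress-induced member of the TGF-beta family, had 31.6, 31.2 and 59.1 CPM in overload, against 18.4, 17.2 and 19.8 CPM in control (log2 fold change 1.14 ± 0.18, adjusted p = 1.13e-05). Vegfb, a vascular growth factor, had 96.5, 88.9 and 103 CPM in overload, against 66.7, 64.7 and 69 CPM in control (log2 fold change 0.53 ± 0.066, adjusted p = 5.18e-07). Hgf, the hepatocyte growth factor, fell, with 26.8, 24.1 and 25.2 CPM in overload, against 41.7, 37.2 and 34.6 CPM in control (log2 fold change -0.58 ± 0.11, adjusted p = 0.000197).

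Metal, antioxidant and DNA repair genes changed in both directions. Of 24 metallothionein, iron and heme genes 8 rose and 2 fell. The metal-binding Mt1 had 64.9, 69.5 and 80.8 CPM in overload, against 39.4, 40.1 and 41.3 CPM in control (log2 fold change 0.83 ± 0.17, adjusted p = 0.000492). The ferritin light chain Ftl1 had 12981, 11969.7 and 14435 CPM in overload, against 10176, 9505 and 10606 CPM in control (log2 fold change 0.38 ± 0.10, adjusted p = 0.0041). Ceruloplasmin, Cp, fell, with 57.6, 53.9 and 54.8 CPM in overload, against 79.7, 73.2 and 82.7 CPM in control (log2 fold change -0.50 ± 0.072, adjusted p = 4.1e-06). Of 30 NRF2 and glutathione genes 9 fell and 3 rose. Gclc, the catalytic subunit of the first step of glutathione synthesis, had 59.6, 52.5 and 53.4 CPM in overload, against 91.7, 76.5 and 86 CPM in control (log2 fold change -0.62 ± 0.088, adjusted p = 3.14e-06). Nqo1, a quinone reductase, had 43.1, 35.2 and 38.9 CPM in overload, against 57.4, 49.8 and 58 CPM in control (log2 fold change -0.50 ± 0.094, adjusted p = 0.000157). Heme oxygenase, Hmox1, had 853, 798 and 963 CPM in overload, against 834, 759.9 and 870.3 CPM in control and was not called (log2 fold change 0.085 ± 0.067, adjusted p = 0.389). Without overload replicate 2, 7 of these genes rose and 9 fell. Of 27 DNA repair genes 8 fell and 2 rose. Parp1, which marks strand breaks, had 119, 114 and 119.7 CPM in overload, against 160.1, 153 and 157 CPM in control (log2 fold change -0.41 ± 0.060, adjusted p = 4.34e-06). The base excision enzymes Nthl1 and Apex1 had -0.65 ± 0.093 and -0.34 ± 0.065. The p53 targets, 4 higher and 3 lower of 23, and the proliferation genes, 3 higher and 5 lower of 37, lay near the background, with the kinase inhibitor Cdkn1a at 142, 147 and 145 CPM in overload, against 139, 154 and 143 CPM in control. Immediate-early transcription factors had 7 higher and 3 lower of 27, NF-kB subunits and inhibitors 4 and 3 of 20, alternative activation genes 4 and 2 of 15 and alveolar macrophage identity genes 11 and 2 of 28. Of 9 genes of the aryl hydrocarbon receptor 3 fell, the receptor repressor Ahrr by 1.11 ± 0.21. Without overload replicate 2, 3 of the 9 fell and 1 rose.

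Some markers of other cell types were called as well. Of 10 basal epithelial markers 4 fell and none rose, and their summed share of counts was 0.0833% to 0.121% in overload and 0.124% to 0.162% in control. Krt14, a basal keratin, had 100.3, 151 and 101 CPM in overload, against 195, 263 and 191 CPM in control (log2 fold change -0.88 ± 0.21, adjusted p = 0.0016). For 19 markers of airway and alveolar epithelium 2 fell and none rose, or 10.5%, beside 14.4% called lower over all genes tested. Their summed shares overlapped, with 0.138% to 0.208% of counts in overload and 0.181% to 0.249% in control. The part of epithelial cells in the decreases given above was not tested, and in bulk samples fewer cells of a type and less RNA per cell cannot be told apart. Of 8 neutrophil markers 2 rose, Mmp8 and Cxcr1, and their summed share was 0.0328% to 0.0375% in overload and 0.0184% to 0.0201% in control, of which Cxcr1 made up most. The defining neutrophil genes were near 0 in both groups, with S100a9 at 0.128, 0.148 and 0.122 CPM in overload, against 0.226, 0.0784 and 0.194 CPM in control and Cxcr2 at 0.734, 0.681 and 0.912 CPM in overload, against 0.773, 0.889 and 1.03 CPM in control. Of 9 monocyte markers 3 fell, of 7 T-cell markers 1, Cd4, of 3 natural killer markers 1, Klrk1, and of 5 muscle markers 1, Tnnt2. Of 6 dendritic cell markers Batf3 fell and Clec9a rose, and 1 rose of 4 B-cell, 5 endothelial and 3 erythroid markers, Fcrla, Tie1 and Epor. Over all genes tested 14.4% were called lower and 13.7% higher, so 1 call in a list this small says little. The 1 mast cell and eosinophil marker tested, Kit, was not called by edgeR or DESeq2, nor below 0.05 unadjusted. The call of Klrk1 did not hold without overload replicate 2. None of 16 fibroblast markers was called by edgeR, although 3 were higher at an unadjusted p under 0.05 and DESeq2 called 5 higher. Their median log2 fold change was 1.74 with overload replicate 2 and -0.065 without it, where again none was called.

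Overload replicate 2 decided further genes, although leaving out overload replicate 3 removed more calls. Of the 4105 called genes 69.6% were called without overload replicate 3 and 85.0% without overload replicate 2. Only genes tied to overload replicate 2 are named below. Without overload replicate 2, 614 of the called genes lost their call, and 651 others were called then, of which 3 had not passed the filter with all libraries. Of the 65 called higher by 2-fold or more, 51 were still called, and of the 104 called lower by as much, 85. Sez6l, which had 0, 3.73 and 0 CPM in overload and 0 in all controls, and Crispld2, a secreted protein of mesenchymal cells with 0.0957, 3.35 and 0.243 CPM in overload, against 0, 0.0523 and 0.167 CPM in control, were among those lost. Aqp5, a water channel of alveolar epithelium, was gained: it had 0.255, 1.72 and 0.0912 CPM in overload, against 0.838, 2.48 and 1.86 CPM in control, and without overload replicate 2 a log2 fold change of -3.30 (adjusted p = 0.0124). Igfbp5, which binds insulin-like growth factors, had 0.606, 1.6 and 0.365 CPM in overload, against 2.45, 3.21 and 1.33 CPM in control and -2.25 without that library (adjusted p = 0.0185). Besides those given above, list counts of 3 or more that moved by over 1.5 times were those lower among Toll-like receptors, eicosanoid, NF-kB, oxidative phosphorylation and airway epithelial genes, with 3, 4, 1, 1 and 4 lower without it, and the proliferation genes, with 1 higher. The lists of ribosomal proteins, ribosome biogenesis, complement, MHC class II, glycolysis and lysosomal genes kept their direction without it, with 30, 27, 7 and 9 lower and 18 and 29 higher.

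**Figure D4:**
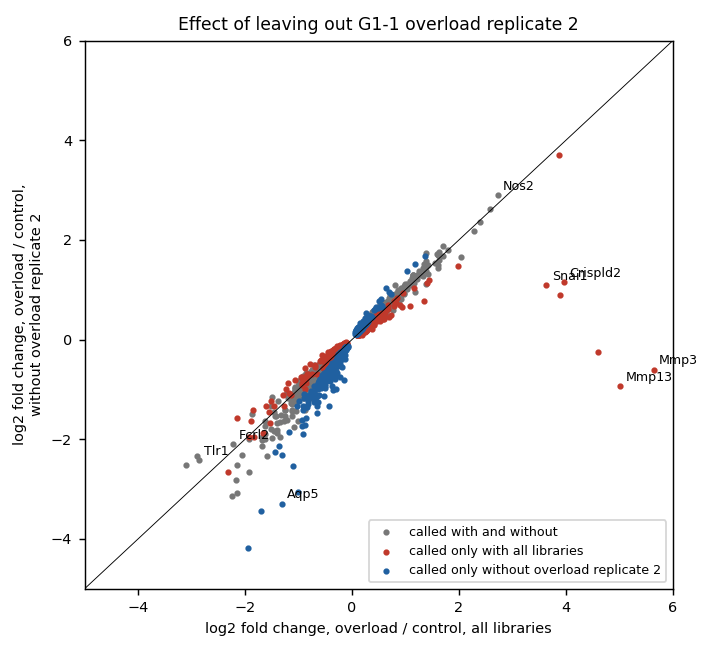
Log2 fold change of G1-1 overload over control with all libraries (x axis) and without overload replicate 2 (y axis), 1 point per gene called in at least one of the fits, with the line of equality. Most genes called in both (grey) lie near the line, while Mmp3, Mmp13, Snai1 and Crispld2 lie far below it; Sez6l, at 0 in all controls, is not drawn.

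The G1-1 overload response was then set against the mean overload response of Printex90, G3-1 and Bayertitan, each over its own controls, in 1 contrast of the same fit. By this test 15.3% of genes differed, 6.5% with a higher and 8.77% with a lower response to G1-1. Ribosomal protein genes stood out in number: 28 of 48 had a lower response and none a higher one, with a median difference of -0.321 on the log2 scale, beside 0.00886 over all genes. Rpl35 had log2 fold changes of -1.20 with G1-1, -0.12 with Printex90, -0.001 with G3-1 and 0.002 with Bayertitan, and the difference was -1.16 ± 0.13 (adjusted p = 2.39e-07). Hsp90b1 had -0.77, -0.10, -0.089 and -0.033 in the same order, a difference of -0.70 ± 0.036 (adjusted p = 1.2e-13). Ccdc124, a ribosome-binding protein, had 12, 13.1 and 13.7 CPM in overload, against 29.6, 28.5 and 29.1 CPM in control, and its response differed by -1.18 ± 0.068 (adjusted p = 8.15e-13). Ccdc124 had log2 fold changes of -1.17 with G1-1 and 0.10, -0.035 and -0.034 with the other particles. In these 3 genes the decrease with G1-1 was several times larger than any with another particle. Of 39 ribosome biogenesis genes 17 had a lower response and none a higher one, of 31 proteasome genes 13 and 1, of 32 translation factors 11 and 3, of 37 chaperones 9 and 2, and of 34 endoplasmic reticulum stress genes 8 and 5. The ribosome biogenesis medians were below 0 with every particle, at -0.301 with G1-1, -0.105 with Printex90, -0.144 with G3-1 and -0.080 with Bayertitan. Interferon-stimulated and DNA repair genes had 7 lower and none higher of 34 and 27. Complement, MHC class I and interleukin-1 genes had 4 lower and none higher of 17, 18 and 21. Complement medians were -0.669 with G1-1, -0.539 with Printex90, -0.023 with G3-1 and 0.038 with Bayertitan. Interleukin-1 medians were -0.227, -0.254, -0.057 and 0.006 in the same order. In these 2 lists the decrease was thus shared with Printex90. At an unadjusted p under 0.05, 2 ribosome biogenesis and 2 DNA repair genes had a higher response, as did 1 ribosomal protein, 1 complement and 1 MHC class I gene; DESeq2 called 1 of the DNA repair list higher and none in the others.

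Libraries of the other particles enter this difference, and some of them carried Col3a1. It was at 35.5 and 31.4 CPM in G3-1 overload replicates 1 and 2, at 31.2 and 109.5 CPM in G3-1 control replicates 1 and 2 and at 31.6 CPM in Printex90 control replicate 2. Without every library above 10 CPM, which leaves 1 overload and 1 control library of G3-1, 2208 genes differed, 1107 with a higher and 1101 with a lower response, and 74.6% of the 2231 reported above were among them. The lone G3-1 libraries are then assumed to vary like the other groups. Ribosomal protein genes then had 20 lower and 1 higher, ribosome biogenesis genes 19 lower, proteasome genes 13 lower and 1 higher and lysosomal genes 18 higher. Interferon-stimulated genes had 4 lower and complement genes 1. Rpl35, Hsp90b1, Ccdc124 and Gaa still differed, by -1.12, -0.68, -1.24 and 0.45.

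Among the lists that rose, 11 of 41 lysosomal genes had a higher response to G1-1 and none a lower one. Gaa had 0.59 with G1-1, 0.26 with Printex90, 0.24 with G3-1 and 0.038 with Bayertitan, a difference of 0.41 ± 0.079 (adjusted p = 0.000485). Of the fatty acid genes 6 of 27 had a higher response and none a lower one, although 1 was lower at an unadjusted p under 0.05. Scd2 was among the 6, with 1.02, 0.86, 0.33 and 0.39 in the same order, a difference of 0.49 ± 0.087 (adjusted p = 0.000157). Cxcr4 had 1.14, 0.84, 0.44 and 0.30, a difference of 0.61 ± 0.10 (adjusted p = 7.78e-05). Ncf1 had 0.89, 0.80, 0.32 and 0.031, a difference of 0.51 ± 0.092 (adjusted p = 0.000204). All 3 genes were also called higher with Printex90. Of 30 remodelling genes 7 had a higher response, Mmp3, which rests on overload replicate 2, being 1 of them. None of 22 glycolysis genes differed by edgeR, while 5 had a higher response at an unadjusted p under 0.05 and DESeq2 called 1. Their medians were 0.329 with G1-1, 0.339 with Printex90, 0.191 with G3-1 and 0.304 with Bayertitan. For MHC class II, 1 of 15 genes had a lower response to G1-1, Cd74, at -0.49 ± 0.11, and the list's medians were -0.392, -0.789, -0.060 and 0.151 in the same order. For hypoxia genes 3 of 37 had a higher and 3 a lower response, shares near the background.

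**Figure D5:**
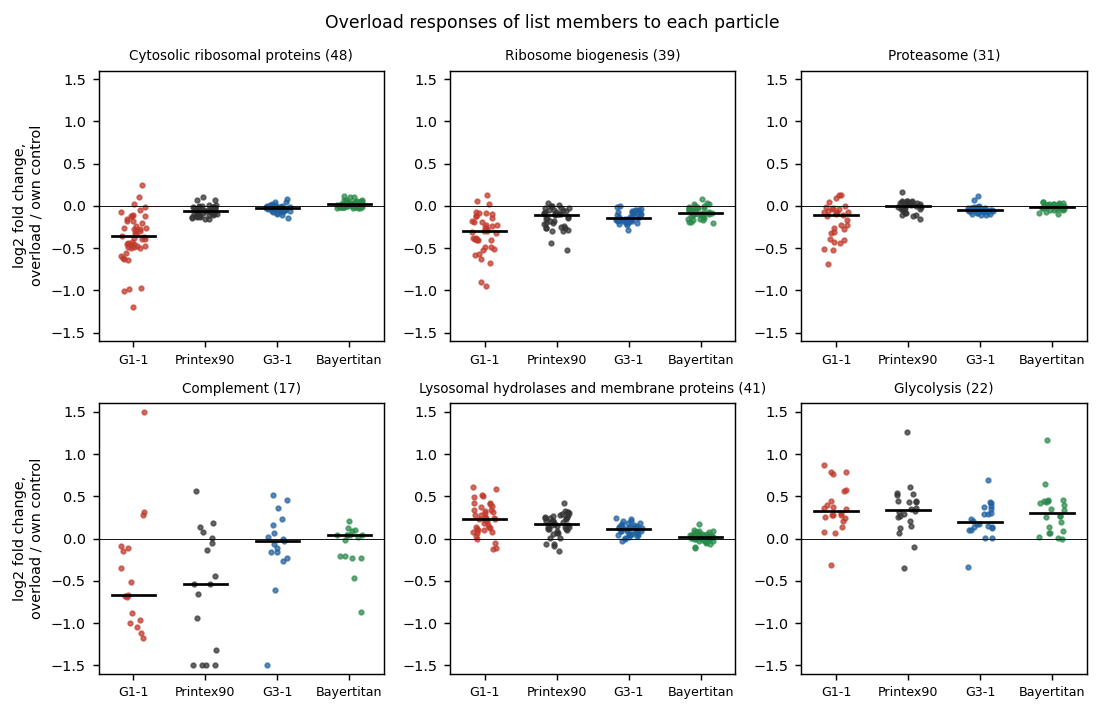
Log2 fold change of overload over the particle's own control (y axis) for each tested member of 6 gene lists (points, with a line at the median), for G1-1, Printex90, G3-1 and Bayertitan (x axis); values beyond 1.5 either way are drawn at 1.5. Ribosomal protein members reach below -0.5 with G1-1 and have medians of -0.060, -0.027 and 0.015 with the other particles, while glycolysis members lie mostly above 0 with all 4.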

How the data were processed

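The values are expected counts of 23487 genes in 36 libraries, deposited by the authors in a single table in which 30.5% of values had decimals. Per the labels' protocols, RNA was isolated with TriPure, and libraries were made with a KAPA RNA HyperPrep kit with RiboErase. FastQC, MultiQC, Salmon and Rnor_6.0 are named in the submitters' processing notes. No source used here gives versions or settings, strand included, so overlapping and antisense genes are uncertain.

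The expected counts were rounded and tested with edgeR 4.0.16 in R 4.3.3: TMM scaling, filterByExpr (minimum count 10, minimum total 15) and quasi-likelihood models in which each of the 12 groups had its own coefficient (residual degrees of freedom 24). Using all groups gives a shared estimate of the spread, and the common biological coefficient of variation was 0.103. Calls needed a Benjamini-Hochberg adjusted p under 0.05 across the 14606 genes tested; 3287 genes had no count. Shares of counts were compared by exact permutation over libraries. Alternatives were DESeq2 1.42.0, other scaling, no filter, a replicate block, a fibroblast covariate, fewer libraries and leaving out each library.

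The members and lists were chosen with earlier results of these data known. Genes named were the 12 largest changes each way among called genes of at least 1 CPM with no overlap, the 10 largest changes in CPM each way, up to 6 members of each list by p and 2 by level (all called members where 5 or fewer), 6 each way for the difference between particles, and 5 each way for calls that hang on overload replicate 2; exceptions are stated, and a few genes the rule names are not reported here. RefSeq's GRCr8 annotation lists 16711 of the names as symbols and 88 more matched with a hyphen in place of a full stop. The builds differ, so that table gave names and promoters only, and promoter coordinates are GRCr8.

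The chi-square of replicate pairs, divided by its degrees of freedom, was 6.62 to 23.5, so each library was kept as a replicate of its own. In simulated counts with G1-1 overload against control, 67.2%, 85.1% and 95.5% of genes changed by 1.5-, 2- and 4-fold were recovered, and 3 of 14305 others were called. The simulated counts followed the fitted model, with few changed genes and no library like overload replicate 2. They therefore do not measure false calls in these data.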

Additional observations from a re-analysis of the deposited data

Results flagged for a closer look

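These 12 genes had the largest differences, 6 each way, between the G1-1 overload response and the mean overload response of the other 3 particles, tested as a contrast of the same edgeR fit. The values are log2 differences with standard errors.

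Among the lower responses, Tlr1 differed by -2.02 ± 0.42, Fcrl2 by -1.88 ± 0.22 and Hmgn5 by -1.82 ± 0.57 (adjusted p = 0.00106, 4e-07 and 0.0265). Stmn2 differed by -1.54 ± 0.52, Ccdc124 by -1.18 ± 0.068 and Pole3 by -1.16 ± 0.29 (adjusted p = 0.0447, 8.15e-13 and 0.00589). In each of the 6 genes all 3 G1-1 overload libraries lay below all 3 G1-1 controls. Pole3, a subunit of DNA polymerase epsilon, had 0.989, 1.54 and 0.821 CPM in overload, against 2.8, 2.2 and 2.36 CPM in control.

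Among the higher responses, Rgs9 differed by 1.12 ± 0.34 and Gata2, a transcription factor, by 1.15 ± 0.35 (adjusted p = 0.024 and 0.0226), and both rose with G1-1. Gata2 had 2.17, 4.71 and 3.62 CPM in overload, against 1.35, 1.28 and 1.39 CPM in control. Cyp1a1 and Cyp1b1, cytochrome P450 genes controlled by the aryl hydrocarbon receptor, differed by 1.71 ± 0.52 and 1.64 ± 0.49 (adjusted p = 0.0226 and 0.0212). Neither was called with G1-1, at -0.059 and -0.49; with Printex90 their log2 fold changes were -5.40 and -5.49. Ptges, a prostaglandin E synthase, differed by 1.91 ± 0.53 (adjusted p = 0.0123) and had 2.2, 9.12 and 2.65 CPM in overload, against 4.22, 5.41 and 3.89 CPM in control. Mmp3 differed by 5.33 ± 1.76 (adjusted p = 0.0383), and both it and Ptges were highest in overload replicate 2, the library with high Col3a1. Without every library with Col3a1 above 10 CPM, those of other particles included, Rgs9, Gata2, Ptges, Mmp3 and Stmn2 were not called (adjusted p = 0.203, 0.163, 0.097, 0.692 and 0.125).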

How the results depend on the processing

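Genes called both in the reported fit and under an alternative kept their direction in each alternative. Of the 4105 genes called for G1-1 overload against control, 96.8% were called by DESeq2 (4175 in all), 97.6% with relative log expression scaling (4126), 90.9% without the filter (3753) and 99.0% with fibroblast marker level as a covariate (5115). Without the libraries with Col3a1 above 10 CPM 4560 were called, 88.1% of the 4105 among them, and 172 were lower by 2-fold or more, against 104. For the difference that setting gave 2208 calls, against 2231. With only the 9 G1-1 libraries 3456 were called, and with only the 6 compared here 2810, of which 1307 were higher; fewer residual degrees of freedom go with fewer libraries.

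Leaving out 1 G1-1 library at a time gave 2931 to 4142 calls, with 1343 to 2180 higher and 51 to 99 higher by 2-fold or more. The low end came without overload replicate 3 and the 99 without overload replicate 1. For the difference from the other particles such fits gave 563 to 938 higher, lowest without control replicate 2 and at 592 without overload replicate 3, and 9 to 24 higher by 2-fold or more, at 9, 10 and 11 without overload replicate 2, control replicate 1 and control replicate 3.

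Directions turned in 3 genes. The reported values were 5.02 for Mmp13, 5.64 for Mmp3, 5.33 for the difference of Mmp3 and 0.0497, not called, for Ptges. Without overload replicate 3 the first 3 were 5.60, 6.23 and 5.91. Mmp13 was at -0.94 without the libraries with Col3a1 above 10 CPM and -0.932 without overload replicate 2, and Mmp3 at -0.616 and -0.610. The difference for Mmp3 was then -0.678 and -0.934. Ptges was at -0.894 without the Col3a1 libraries, and called. With fibroblast marker level as a covariate Mmp13, Mmp3 and the difference of Mmp3 were not called, at 2.18, 2.14 and 1.05. Mmp13 and that difference also lost their calls with the replicate block, at 4.03 and 3.67, and without control replicate 1, 2 or 3 (adjusted p = 0.0598, 0.0571 and 0.0749 for Mmp13 and 0.0667, 0.108 and 0.0989 for the difference). The causes were not tested. Sez6l had no count in the remaining overload and control libraries without overload replicate 2.

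Whether replicate numbers pair the libraries could not be told from the correlations, which were weak. Same-numbered overload and control libraries correlated at 0.0418, 0.11 and 0.0339 for replicates 1, 2 and 3. Overload replicates 1 and 2 correlated best with the control of their own number, and overload replicate 3 with control replicate 1 (0.0391). With the replicate block 4295 genes were called for overload against control and 2430 for the difference. Genes under about 1 CPM, such as Tlr1, rest on few counts.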
